A study of Mus musculus with 10 samples.

Results

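The genes described here encode proteins of neutrophils and their precursors. They are 10 of the 24062 genes counted in the pancreas of newborn mice, namely the granule genes Mpo, Elane, Prtn3, Ngp, Camp, Ltf, Mmp8 and Mmp9 and the cytosolic pair S100a8 and S100a9. They were chosen by name, and all 10 were found in the tables. RNA of the whole pancreas was sequenced at postnatal day 5 from 5 WT mice and 5 KSR23 mice, with 1 library for each mouse. All mice were C57BL/6. KSR23 mice carry the R23 allele, in which a floxed STOP signal in ROSA26 holds back an IL-23 cassette, together with K14-cre, which expresses cre-recombinase under control of K14, so the cytokine is expressed in keratinocytes and not from a promoter of the pancreas, and the WT mice were their control littermates. The comparison asks how the content of granule transcripts in the pancreas differed between mice with and without IL-23 expression.

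Neutrophils fill their granules in a fixed order while they mature. Promyelocytes make the proteins of azurophil granules, among them myeloperoxidase and the serine proteases, and then switch these genes off. Myelocytes and metamyelocytes make the proteins of specific and gelatinase granules, and S100A8 and S100A9 fill the cytosol of the mature cell and are also made by monocytes. In newborn mice neutrophils are formed in bone marrow and still in liver and spleen. IL-23 sustains lymphocytes that release IL-17 and IL-22, and IL-17 is known to raise neutrophil chemoattractants and the growth factor G-CSF.

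The libraries held between 26830235 and 33189132 gene counts in WT mice and between 16715976 and 57784136 in KSR23 mice, and KSR23 replicate 3 was the smallest. At these depths 3 counts corresponded to between 0.0538 and 0.166 CPM (counts scaled to the size of the library, by the TMM method), and such a floor covers counting error only. Transcripts of the acinar enzymes Cel and Prss2 averaged 84591 and 36771 CPM in WT mice and 55870 and 47304 CPM in KSR23 mice. The 10 pancreas markers summed to between 151418 and 175090 CPM in WT mice and to between 106474 and 133038 CPM in KSR23 mice, without overlap. Of these 10 markers 7 were lower and 2 higher in KSR23 mice, against 12.4 and 13.5% of all genes tested. The part of this shift in the CPM of the granule genes was not tested. Il23a and Il12b encode the subunits of IL-23, and the cassette carries both. Il23a was higher in KSR23 mice (log2 fold change (log2 FC) 2.53, adjusted p = 0.000127), without overlap between the groups. The other subunit gene, Il12b, gave 1.39 with an adjusted p of 0.237, and 2.69 without WT replicate 2 (adjusted p = 0.0422). Unless another fit is named, adjusted p values are those of the quasi-likelihood F test of edgeR, by the Benjamini-Hochberg method over all 17167 genes tested. Fits with mice left out use the same test, adjusted over the genes tested in that fit, 17103 without KSR23 replicate 3. Ranges over all alternatives also hold values of a likelihood ratio test and of DESeq2. KSR23 replicate 3 stood apart, with the highest level of every one of the 10 genes and of the 6 detected erythroid markers, and the results of the 10 genes and the counts of the neutrophil gene lists are therefore given with and without it. Alignments that were not unique numbered 1.07 to 1.26 for each gene count in WT mice and 0.667 to 0.787 in KSR23 mice, without overlap, and their part in the results was not tested.

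Granule and cytosolic neutrophil genes were higher in the pancreas of KSR23 mice. Of the 10 genes 8 rose and none fell, with a median log2 FC of 2.23 over the 10. Over all genes tested, 13.5% rose, 12.4% fell and the median log2 FC was -0.0062. The genes that rose were S100a8, S100a9, Prtn3, Ngp, Camp, Ltf, Mmp8 and Mmp9, whereas Mpo (log2 FC 1.41) and Elane (1.49) did not pass the test. In 6 of the 10, every KSR23 mouse was above every WT mouse, which was the case for 9.24% of all genes tested. Without KSR23 replicate 3, 7 of the 10 still rose and the median log2 FC was 1.34. In that fit 13.4% of all genes rose. Ngp was the gene lost. In whole tissue more neutrophils, more granule RNA in each cell and transcripts of these genes from other cell types cannot be told apart.

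**Figure D1:**
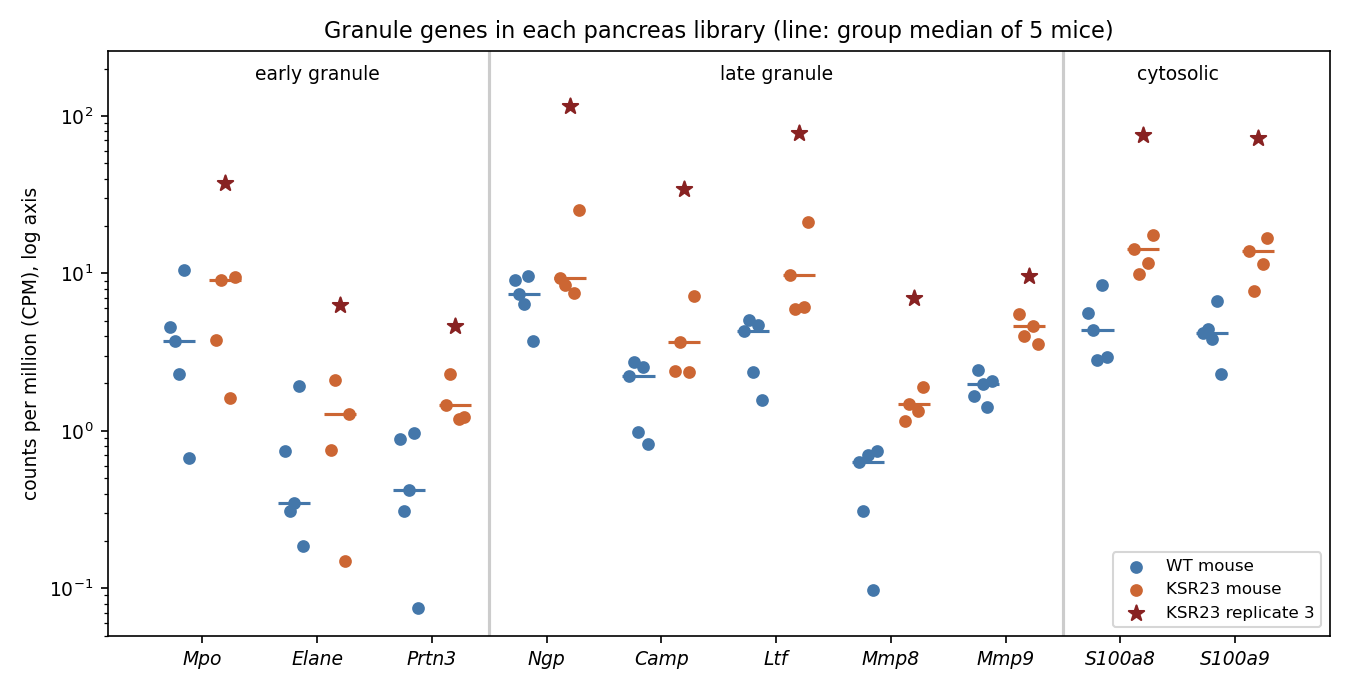
CPM of the 10 genes in each library on a log axis, with 1 point for each mouse, a line at the median of each group of 5 mice and a star for KSR23 replicate 3. The star is the highest point of all 10 genes, and the remaining KSR23 points of Mpo, Elane, Ngp and Camp lie partly within the WT points.

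The DNA around the start sites of these genes is shown because 8 of the 10 rose and because C/EBP factors and PU.1, which drive granule genes during neutrophil maturation, bind short recognisable sequences. Promoter sequence was found for 9 of the 10 genes in RefSeq (GRCm38.p6), and Mmp9 had none. The 250 bases before the RefSeq start site were searched on both strands for TTGCNNAA, letters of the kind C/EBP factors bind, for GAGGAA, a PU.1 type ETS core, and for TTCNNNGAA, a STAT type palindrome. For several genes the RefSeq start lies inside the gene as GENCODE annotates it, whose positions are given with each gene below, so parts of these windows can be transcribed, and the window of Prtn3 lies wholly within the annotated gene. Matches of different motifs did not overlap in any of the 9 promoters. The sequences of the cytosolic pair, of 1 early gene and of 2 late genes are given from 5′ to 3′ on the strand of the gene, with every match in capitals. They lie at chr3:90668821-90669070, plus strand (S100a8), chr3:90695722-90695971, minus strand (S100a9), chr11:87793534-87793783, plus strand (Mpo), chr9:110419558-110419807, plus strand (Ngp) and chr9:111019042-111019291, plus strand (Ltf).
S100a8: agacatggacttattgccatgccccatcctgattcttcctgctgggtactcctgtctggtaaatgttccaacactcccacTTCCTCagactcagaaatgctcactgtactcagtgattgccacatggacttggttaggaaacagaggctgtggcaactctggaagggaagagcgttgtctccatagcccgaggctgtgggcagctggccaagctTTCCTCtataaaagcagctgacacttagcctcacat
S100a9: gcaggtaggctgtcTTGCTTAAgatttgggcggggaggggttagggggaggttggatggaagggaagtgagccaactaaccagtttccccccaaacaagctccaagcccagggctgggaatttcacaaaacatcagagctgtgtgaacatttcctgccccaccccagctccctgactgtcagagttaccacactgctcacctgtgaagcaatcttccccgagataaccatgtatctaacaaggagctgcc
Mpo: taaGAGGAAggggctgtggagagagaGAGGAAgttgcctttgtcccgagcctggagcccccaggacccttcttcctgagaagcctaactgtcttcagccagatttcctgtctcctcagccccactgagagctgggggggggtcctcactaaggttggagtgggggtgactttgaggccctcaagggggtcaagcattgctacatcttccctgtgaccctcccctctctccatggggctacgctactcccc
Ngp: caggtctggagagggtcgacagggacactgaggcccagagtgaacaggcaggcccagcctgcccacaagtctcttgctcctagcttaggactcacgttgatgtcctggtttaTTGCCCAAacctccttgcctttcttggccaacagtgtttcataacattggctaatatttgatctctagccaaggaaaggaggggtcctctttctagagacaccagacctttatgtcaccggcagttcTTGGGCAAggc
Ltf: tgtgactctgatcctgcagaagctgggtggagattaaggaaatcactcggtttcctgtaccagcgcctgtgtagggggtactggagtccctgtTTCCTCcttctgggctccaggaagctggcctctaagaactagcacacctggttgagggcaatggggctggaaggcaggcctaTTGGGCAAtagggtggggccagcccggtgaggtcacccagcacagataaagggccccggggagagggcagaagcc
The capitals of S100a8 are 2 GAGGAA matches on the opposite strand, beginning 170 and 36 bases before the start site. S100a9 holds 1 TTGCNNAA match 236 bases before its start. The promoter of Mpo has GAGGAA matches at 247 and 224 bases, that of Ngp has TTGCNNAA matches at 138 and 11 bases, and that of Ltf has one of each kind, GAGGAA at 157 and TTGCNNAA at 75 bases. Among the promoters not printed, Elane and Prtn3 hold GAGGAA, Mmp8 holds both motifs and Camp holds neither. GAGGAA was thus present in 6 of the 9 promoters, against 23.3% of 32851 promoters in all, and was found in all 3 early genes. TTGCNNAA was present in 4 of the 9, against 9.56% of all, and in none of the early genes. The STAT palindrome was present in 0 of the 9, against 7.02% of all. A match describes the letters of this window and is not evidence of a bound site.

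S100a8 and S100a9 encode the subunits of calprotectin, the calcium and zinc binding protein of the neutrophil cytosol. Both lie on chromosome 3 of GRCm38, S100a8 at 90668978 to 90670035 on the plus strand and S100a9 at 90692632 to 90695721 on the minus strand, 22.6 kb apart. S100a8 measured 5.58, 4.39, 2.84, 8.47 and 2.94 CPM in WT replicates 1 to 5 and 14.3, 9.89, 75.7, 11.7 and 17.6 CPM in KSR23 replicates 1 to 5. The groups did not overlap, and the third KSR23 mouse was far above the other 4. The means were 4.84 ± 2.32 (SD, n = 5) and 25.8 ± 28.0 CPM, and the mean of the other 4 KSR23 mice was 13.4 ± 3.37 CPM. S100a8 rose by a log2 FC of 2.37 (SE 0.475, adjusted p = 0.00115), and by 1.47 without KSR23 replicate 3 (adjusted p = 0.000141). The smaller difference without that mouse had the lower p.

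S100a9 measured 4.17, 4.43, 3.85, 6.72 and 2.31 CPM in the WT mice and 13.8, 7.76, 72.8, 11.6 and 16.7 CPM in KSR23 mice, again with no overlap. Its log2 FC was 2.47 (SE 0.477, adjusted p = 0.000848) and 1.54 without KSR23 replicate 3 (adjusted p = 4.2e-05). S100a8 was at 1.12 ± 0.253 times the CPM of S100a9 in WT mice, from 0.736 to 1.34, and at 1.08 ± 0.109 times in KSR23 mice, from 1.01 to 1.27 (n = 5 each). Both genes passed the test in all 22 alternative analyses.

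Mpo, Elane and Prtn3 encode proteins of azurophil granules, which are transcribed early, in promyelocytes. Mpo encodes myeloperoxidase, which forms hypochlorous acid, and lies on chromosome 11 from 87793581 to 87804413 on the plus strand. It measured 4.59, 3.74, 2.31, 10.6 and 0.670 CPM in WT replicates 1 to 5 and 3.78, 9.12, 37.3, 1.61 and 9.43 CPM in KSR23 replicates 1 to 5. The WT mice alone differed by a wide margin and the groups overlapped, with WT replicate 4 above 4 of the KSR23 mice. The log2 FC was 1.41 (SE 0.633, adjusted p = 0.110), and 0.45 without KSR23 replicate 3 (adjusted p = 0.555). Of the windows of 75 bases in its transcript 90.8% occurred in no other annotated gene, since Gm11505 overlaps it, which makes its counts less certain. Prtn3 also has an exon that overlaps another gene, and the effect of either overlap on the counts was not tested.

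Elane encodes neutrophil elastase and lies on chromosome 10 from 79886247 to 79888215 on the plus strand, 3.07 kb from Prtn3. It measured 0.741, 0.309, 0.350, 1.92 and 0.186 CPM in the WT mice and 0.751, 2.1, 6.31, 0.149 and 1.27 CPM in KSR23 mice. The lowest of all 10 values was in KSR23 replicate 4, with 6 counts. The log2 FC of Elane was 1.49 (SE 0.698, adjusted p = 0.127), and 0.59 without KSR23 replicate 3 (adjusted p = 0.519). For Mpo and Elane the mouse left out also worked the other way. Without WT replicate 4, which had the most early granule counts of the WT mice, the log2 FC was 2.06 for Mpo (adjusted p = 0.0386) and 2.33 for Elane (adjusted p = 0.0347). Without KSR23 replicate 4 it was 1.71 (adjusted p = 0.0387) and 1.81 (adjusted p = 0.0395). With KSR23 replicate 3 and WT replicate 4 both left out, it was 1.08 (adjusted p = 0.107) and 1.41 (adjusted p = 0.0966). The call for both genes thus turned on single mice of either group.

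Prtn3 encodes proteinase 3, which cleaves several of the substrates of elastase, and lies on chromosome 10 from 79874476 to 79883174 on the plus strand, where an exon overlaps Plppr3. It measured 0.882, 0.309, 0.420, 0.974 and 0.0745 CPM in the WT mice and 1.45, 2.31, 4.65, 1.19 and 1.22 CPM in KSR23 mice. The groups did not overlap, although the lowest WT value was 2 counts, under the floor of 3. Prtn3 rose by a log2 FC of 1.96 (SE 0.483, adjusted p = 0.00595) and by 1.52 without KSR23 replicate 3 (adjusted p = 0.0144). Among the 3 early genes it was the one that passed the test and the one without overlap. Whether its difference is larger than that of Mpo or Elane was not tested.

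Ngp, Camp and Ltf encode proteins of specific granules, which are transcribed later, and lie near each other on chromosome 9, with Camp and Ltf 570.1 and 596 kb from Ngp on either side. Ngp, neutrophilic granule protein, is found from 110419747 to 110423012 on the plus strand. It measured 9.14, 7.38, 6.44, 9.61 and 3.72 CPM in the WT mice and 9.34, 8.41, 116, 7.49 and 25.2 CPM in KSR23 mice. KSR23 replicates 3 and 5 were above all WT mice, while the other 3 KSR23 mice lay within the WT range. Ngp rose by a log2 FC of 2.15 (SE 0.603, adjusted p = 0.0132), and without KSR23 replicate 3 gave 0.81 (adjusted p = 0.0502). Of the 10 genes this was the call that ended with that mouse left out.

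Camp encodes the precursor of the antimicrobial peptide CRAMP and is found from 109847379 to 109849617 on the minus strand. It measured 2.22, 2.74, 0.980, 2.53 and 0.819 CPM in the WT mice and 2.40, 3.67, 34.6, 2.35 and 7.23 CPM in KSR23 mice. KSR23 replicates 1 and 4 lay within the WT range. The log2 FC was 2.36 (SE 0.628, adjusted p = 0.00981) and 1.08 without KSR23 replicate 3 (adjusted p = 0.0267). In this gene KSR23 replicate 3 was 4.78 times the next KSR23 mouse, the highest such ratio of the 10 genes, which ran down to 1.74 for Mmp9.

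Ltf encodes lactoferrin, which binds iron, and is found from 111019271 to 111042767 on the plus strand. It measured 4.31, 5.08, 2.38, 4.67 and 1.56 CPM in the WT mice and 9.71, 5.95, 78.2, 6.10 and 21.4 CPM in KSR23 mice. There was no overlap, but the lowest KSR23 mouse was close to the highest WT mouse. Ltf rose by a log2 FC of 2.70 (SE 0.589, adjusted p = 0.00232) and by 1.59 without KSR23 replicate 3 (adjusted p = 0.00157). The log2 FC of 2.70 was the highest of the 10 genes with all mice.

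Mmp8 and Mmp9 encode the granule collagenase and the gelatinase that neutrophils release into tissue. Mmp8 is found on chromosome 9 from 7558456 to 7568485 on the plus strand, and Mmp9 on chromosome 2 from 164940780 to 164955850 on the plus strand. Mmp8 measured 0.635, 0.309, 0.700, 0.0974 and 0.745 CPM in the WT mice and 1.15, 1.48, 6.98, 1.34 and 1.90 CPM in KSR23 mice. It was low throughout, with 3 counts in WT replicate 4, and did not overlap between the groups. Its log2 FC was 2.31 (SE 0.521, adjusted p = 0.00301) and 1.58 without KSR23 replicate 3 (adjusted p = 0.00589). Mmp9 measured 1.66, 2.44, 2.0, 1.43 and 2.09 CPM in the WT mice and 5.53, 4.03, 9.64, 4.61 and 3.59 CPM in KSR23 mice. Relative to their mean, the KSR23 mice varied less in this gene than in the other 9, with means of 1.92 ± 0.390 and 5.48 ± 2.44 CPM (n = 5 each). Mmp9 rose by a log2 FC of 1.48 (SE 0.243, adjusted p = 0.000175), or 1.21 without KSR23 replicate 3 (adjusted p = 0.000115).

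**Figure D2:**
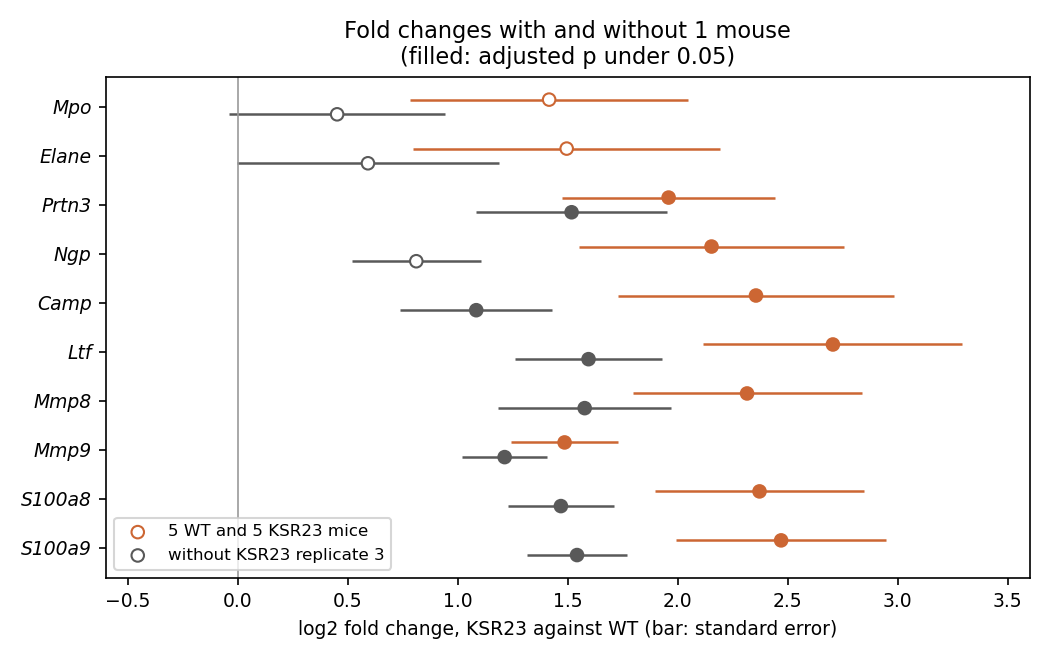
Log2 FC of KSR23 against WT for each of the 10 genes, with bars of 1 standard error, over 5 WT and 5 KSR23 mice and without KSR23 replicate 3. Filled points had an adjusted p under 0.05, and every gene has a smaller log2 FC without that mouse, from 0.45 for Mpo to 1.59 for Ltf.

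Ordered by CPM per kb of exon, the median over WT mice was 7.98 for S100a9, 6.33 for S100a8, 6.04 for Ngp and 2.93 for Camp. Then came Ltf at 1.25, Mpo at 1.09, Mmp9 at 0.564, Elane at 0.356, Mmp8 at 0.262 and Prtn3 at 0.243 CPM per kb. Neighbours such as S100a9 and S100a8, S100a8 and Ngp, Ltf and Mpo, or Mmp8 and Prtn3 differed by less than the range over the WT mice. The exon length counts all annotated exons of a gene, 0.694 kb for S100a8 and 1.732 kb for Prtn3. Their longest coding transcripts have 498 and 1025 bases, so the order of such neighbours depends on this choice. The order in KSR23 mice was the same except that Prtn3 (0.838) and Mmp8 (0.611) changed places. In both groups the cytosolic pair was at the top, at 26.4 for S100a9 and 20.6 for S100a8 CPM per kb in KSR23 mice, and the early serine proteases were near the bottom.

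Summed over the genes of each class, late granule transcripts were 15.1 ± 4.23 CPM in the WT mice and 75.7 ± 96.2 CPM in KSR23 mice, or 33.2 ± 17.6 CPM without replicate 3. Early granule transcripts were 5.61 ± 4.80 CPM in the WT mice and 16.5 ± 18.3 CPM in KSR23 mice, or 8.60 ± 4.97 CPM without replicate 3. The cytosolic pair went from 9.14 ± 3.82 CPM to 50.3 ± 55.2 CPM, or 25.8 ± 7.11 CPM without replicate 3. Of the early class 1 of 3 genes rose, of the late class 5 of 5 and of the cytosolic pair 2 of 2. Among all genes tested 13.5% rose. The share of early transcripts in the early and late sum was 25.7, 19.5, 19.8, 42.3 and 9.43% in WT replicates 1 to 5 and 17.5, 36.5, 16.4, 11.9 and 16.7% in KSR23 replicates 1 to 5. The KSR23 range lay inside the WT range. The log2 ratio of early to late transcripts was -1.86 ± 1.02 in WT and -2.12 ± 0.781 in KSR23 mice (n = 5 each), a difference of -0.26 that is smaller than the SD of either group. KSR23 replicate 3, with a ratio of -2.35, was within the range of the other KSR23 mice. Early and late transcripts were thus both in excess in that mouse, in a proportion found in the others. All 10 genes together made up 29.9 ± 12.1 CPM in WT and 143 ± 169 CPM in KSR23 mice, 4.77 times as much, or 67.6 ± 25.9 CPM and 2.26 times as much without replicate 3.

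**Figure D3:**
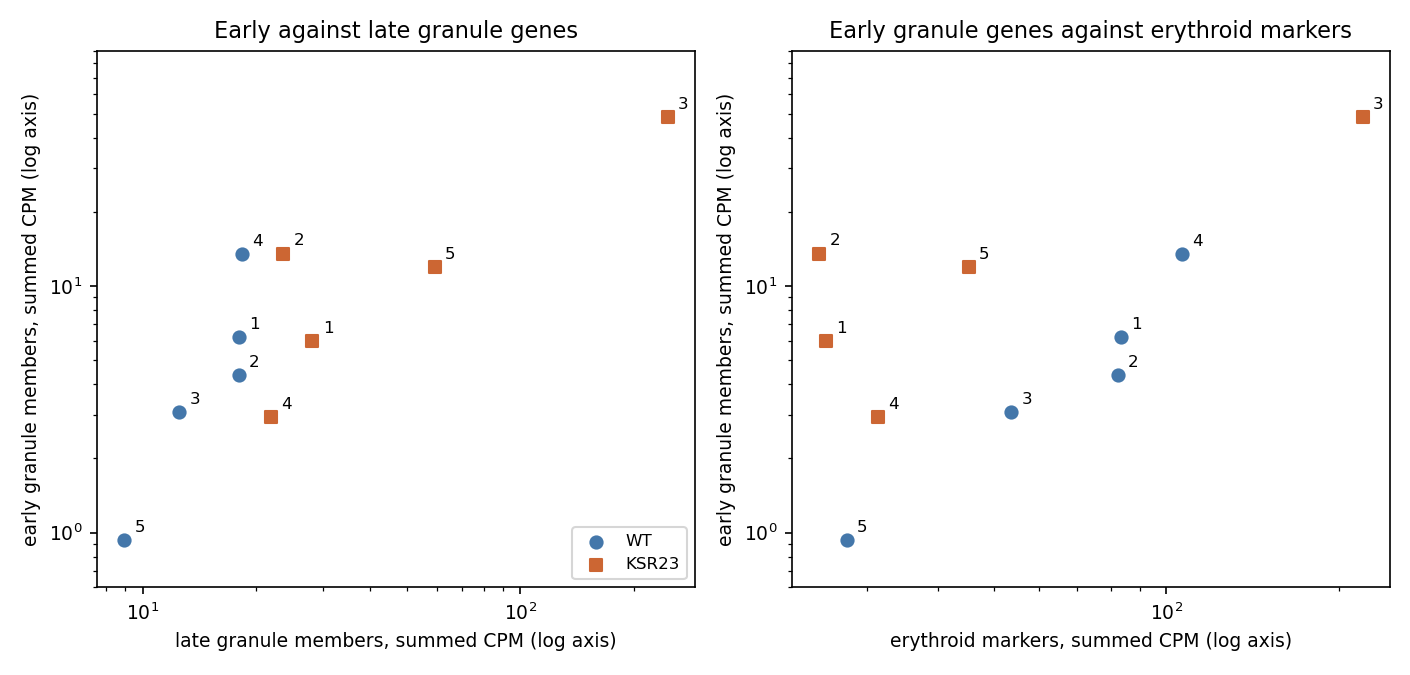
Summed CPM of the 3 early granule genes against the 5 late granule genes (left) and against the erythroid markers (right), on log axes, with 1 point for each mouse and its replicate number. KSR23 replicate 3 is highest on every axis, at 48.3 CPM early, 246 CPM late and 220 CPM erythroid, and the WT mice have the same order on every axis.

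Markers of red cell precursors varied in part with these genes. The erythroid markers, among them the band 3 gene Slc4a1 and Alas2 of haem synthesis, summed to between 27.7 and 106 CPM in WT mice, to between 24.8 and 45.2 CPM in 4 of the KSR23 mice and to 220 CPM in KSR23 replicate 3. Slc4a1 alone was at 86.0 CPM in that mouse, against 2.28 to 5.81 CPM in the other KSR23 mice and 2.98 to 29.8 CPM in WT mice. The 6 haemoglobin genes of the list were listed at 0 in every library, also in those with high levels of the other erythroid markers, so these zeros do not show that red cells were absent. Among the WT mice, the sums of the early, late, cytosolic and erythroid genes all had the same order, with replicate 4 highest, then 1, 2, 3 and 5. Part of this order rests on near ties. The late sums of replicates 4, 1 and 2 were 18.3, 18.0 and 17.9 CPM, and the erythroid sums of replicates 1 and 2 were 83.2 and 82.2 CPM. In KSR23 mice replicates 3 and 5 had the highest late, cytosolic and erythroid sums, but the early sum of replicate 2 (13.5 CPM) came after that of replicate 3 while its erythroid sum (24.8 CPM) was the lowest. None of the 6 tested erythroid genes passed with all mice (median log2 FC 0.12), whereas 5 of 6 were lower in KSR23 mice without replicate 3 (median -1.99). In that fit 1983 of all 17103 genes tested were lower. In the 4 other KSR23 mice the erythroid sum was within or below the WT range. In these 4 mice S100a8, S100a9, Prtn3, Ltf, Mmp8 and Mmp9 were above all WT mice, whereas Mpo, Elane, Ngp and Camp overlapped with WT mice. The part of blood or blood-forming cells in the granule transcripts was not tested.

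Other early granule genes were close to the detection limit. Of 5 listed genes 4 could be tested and none passed, with a median log2 FC of 1.21 that became 0.13 without KSR23 replicate 3. Ctsg, which encodes cathepsin G, gave 1.05 (adjusted p = 0.382), Ms4a3 of granulocyte precursors gave 1.59 (adjusted p = 0.238) and Prss57 gave 1.38 (adjusted p = 0.344). Igll1 gave -0.70 (adjusted p = 0.636), at between 0 and 4 counts in each library. It encodes a chain of the pre-B cell receptor and not a granule protein, and as the lowest of the 4 it draws the median of the list down. Ctsg was highest in KSR23 replicate 3, at 1.5 CPM, and the other 4 KSR23 mice, between 0.0248 and 0.484 CPM, were under the highest WT mouse at 0.519 CPM.

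Of the other late granule genes, 14 of 19 were higher in KSR23 mice and none was lower, with a median log2 FC of 2.11. Without KSR23 replicate 3, 12 rose and the median was 1.35. The share of all genes that rose was 13.5% with all mice and 13.4% without that mouse. The differences were highest for Lrg1 (log2 FC 6.00, and 6.20 without that mouse) and Lcn2 (4.85 and 4.81), a glycoprotein and a siderophore-binding protein that epithelial and liver cells also make. Lrg1 was at 3.21 CPM in WT and 205 CPM in KSR23 mice on average, and Lcn2 at 2.68 and 77.5 CPM. Unlike the 10 granule genes, neither was highest in KSR23 replicate 3, where Lrg1 was at 84.0 CPM against 123 to 354 CPM in the other KSR23 mice. Cd177, a neutrophil surface protein, rose by 2.89 (adjusted p = 0.00303) and by 1.98 without that mouse. Among the 14 were also the stefin A genes Stfa1, Stfa2, Stfa2l1, Stfa3 and BC100530, which do not encode granule proteins. Of the transcript windows of BC100530 64.2% occurred in no other annotated gene, with others shared with Stfa1. Stfa2 and Stfa2l1 also shared windows, whereas those of Stfa3 were 100% unique. The 14 calls are therefore not all of granule genes and not all independent. Olfm4 gave 0.57 (adjusted p = 0.270) and the properdin gene Cfp 0.35 (adjusted p = 0.109), which passed without KSR23 replicate 5 (0.49, adjusted p = 0.00515).

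Genes for receptors of mature neutrophils rose in 6 of the 10 cases that could be tested, with a median log2 FC of 1.87. Without KSR23 replicate 3 they rose in 5 of 10, with a median of 1.44. Among all genes 13.5% rose with all mice and 13.4% without that mouse. Cxcr2, the receptor for CXC chemokines, measured 0.176, 0, 0.210, 0.0649 and 0.0745 CPM in the WT mice and 1.53, 1.15, 2.49, 0.719 and 1.38 CPM in KSR23 mice. It had a log2 FC of 3.72 (adjusted p = 2.7e-05), and 3.48 without KSR23 replicate 3. The decoy receptor gene Il1r2 rose by 3.07 (3.0 without that mouse) and Trem1, an activating receptor, by 2.73 (2.5). All 3 still passed without replicate 3, but Trem1 did not with WT replicate 4 left out as well (adjusted p = 0.0620). Fpr1, the formyl peptide receptor, gave 0.76 (adjusted p = 0.288) and Cd300ld 0.13 (adjusted p = 0.713). Of the rest of the list, Cxcr1 was at 0 in every library and Ly6g was not in the tables.

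The oxidase and the transcription factors of the lineage differed by smaller amounts. Over all genes tested 13.5% rose and 12.4% fell. The NADPH oxidase genes Ncf4, Cybb, Ncf1 and Cyba rose, with or without KSR23 replicate 3, at a log2 FC of 1.10 for Ncf4, 1.03 for Cybb, 0.90 for Ncf1 and 0.66 for Cyba. Of the 6 granulopoiesis factor genes 4 rose, Cebpb by 1.21, Cebpd by 1.03, Spi1, which encodes PU.1, by 0.91 and Cebpa by 0.62, and 4 rose without KSR23 replicate 3 as well. Gfi1, a repressor that promotes granulocyte maturation, was lower (log2 FC -0.49, adjusted p = 0.0228), a call lost without WT replicate 4 or 5 or KSR23 replicate 2 or 4 (adjusted p up to 0.0640) and with library size alone (adjusted p = 0.0944). Most of these factors are also expressed by macrophages and epithelial cells.

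Among neutrophil chemoattractant and growth factor genes, 3 of the 7 tested rose with or without KSR23 replicate 3. The median log2 FC was 1.43, and 1.55 without that mouse. The shares of all genes that rose were 13.5% and 13.4% in these fits. Cxcl5, a ligand of CXCR2, measured 0.353, 0.823, 0.245, 0.260 and 0.447 CPM in the WT mice and 24.5, 6.01, 10.9, 8.03 and 11.2 CPM in KSR23 mice. The increase was present in all KSR23 mice, and replicate 3 was not the highest. Its log2 FC was 4.82 (SE 0.389, adjusted p = 3.3e-08), and 4.87 without replicate 3. Il1b rose by 2.40 (adjusted p = 0.000294), and by 2.31 without replicate 3. Csf3, which encodes G-CSF, gave 2.32 (adjusted p = 0.183) at 0.0476 CPM in KSR23 mice on average, under the 3-count floor, Il6 0.86 (adjusted p = 0.494) and Il17f 0.75 (adjusted p = 0.724).

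**Figure D4:**
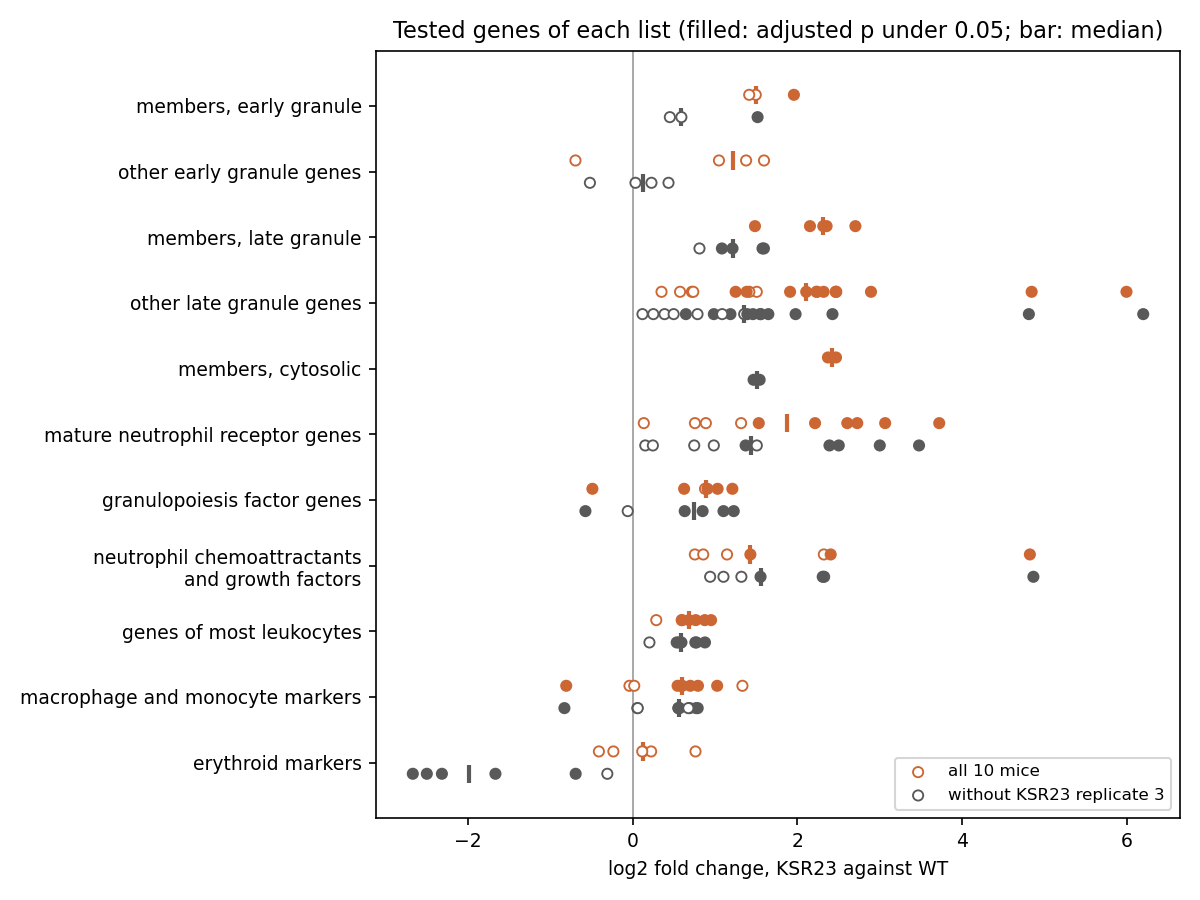
Log2 FC of KSR23 against WT for the tested genes of 11 of the lists, with all 10 mice and without KSR23 replicate 3. Filled points had an adjusted p under 0.05 and bars are medians, and without that mouse the median of the other early granule genes goes from 1.21 to 0.13 while that of the chemoattractants goes from 1.43 to 1.55.

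Markers of other blood cells were measured beside the granule genes. For comparison, 13.5% of all genes tested rose and 12.4% fell. Genes of most leukocytes rose in 6 of 7 cases with a median log2 FC of 0.68, Laptm5 by 0.77 and Tyrobp by 0.60. Macrophage and monocyte markers rose in 6 of 10 cases with a median of 0.59. Within this list the complement genes C1qa and C1qb went opposite ways, at -0.81 and 0.79. None of 7 mast cell and basophil markers passed (Cpa3 -0.22, Cma1 0.08). Of 4 tested eosinophil markers 2 rose, Prg2 by 1.80 (adjusted p = 0.0383) and Siglec5 by 3.84. The call of Prg2 was lost without KSR23 replicate 3 (log2 FC 1.01, adjusted p = 0.153) and in 10 of the other alternative analyses. Epx gave 1.66 (adjusted p = 0.177), and 3.95 without WT replicate 4 (adjusted p = 0.00597). Of 9 lymphoid markers 1 rose and 1 fell, and both encode subunits of the CD3 complex. Cd3d rose by 1.95 (adjusted p = 0.00745) and Cd3e gave -1.51. Cd3g of the same complex gave 0.87 (adjusted p = 0.0736), and Cd79a gave 0.15. Of 5 megakaryocyte and platelet markers Pf4 fell by 0.84 on the log2 scale and Itga2b gave -0.09. Without KSR23 replicate 3, 3 of these 5 were lower, against 1983 of all 17103 genes tested in that fit. The keratinocyte gene Krt5 was listed at 0 in every library, which by itself does not show that it was absent. Neither Krt14 (log2 FC 0.12) nor Krt10 (-0.35) passed with all mice, and Krt10 passed without KSR23 replicate 3 (-0.46, adjusted p = 0.0458). The sums of the macrophage markers were 286 to 341 CPM in WT and 308 to 435 CPM in KSR23 mice, and those of the genes of most leukocytes were 93.0 to 111 and 115 to 192 CPM. The share of these cells in the rise of S100a8 and S100a9 was not tested.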

How the data were processed

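Total RNA of pancreas from 5 WT and 5 KSR23 mice was sequenced with 1 library per mouse. According to the labels, 100 pg of RNA was primed with oligo-dT and amplified by 15 and then 12 PCR cycles, and with no molecular identifiers PCR copies add error that counts do not show. The authors aligned single-end reads of 75 bases to mm10 with TopHat2 2.1.0 and deposited raw counts of reads per gene from HTSeq 0.6.1p1, counted by strict intersection with transcript models. The strand setting and the annotation are not given in the sources used here. Each table also had 5 tallies of reads given to no gene, which were left out of all library sizes. Reads on no gene or on several genes were between 5.78 and 7.54% of these and the gene counts together.

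Genes with at least 10 counts over all libraries were kept, 17167 of 24062. Counts were scaled by TMM and the groups compared with edgeR 4.0.16 (quasi-likelihood F test, no covariate, Benjamini-Hochberg adjustment, threshold 0.05) in R 4.3.3. CPM values use the scaled library sizes. The SE is the log2 FC divided by the square root of F. The study's filter of 5 counts in every library is an alternative here, because it removes Prtn3 and Mmp8. Positions and exon lengths were taken from GENCODE M21 (GRCm38). The script was tested on simulated data. Libraries of a group differed by more than sampling noise (chi-square per degree of freedom at least 11.4), so none held copied counts of another. This measure cannot show whether libraries were made from the same RNA.

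As alternatives, DESeq2 1.42.0, a likelihood ratio test, other scalings and filters, robust dispersion, a replicate block and leaving out each mouse were run. Leaving out KSR23 replicate 3 together with WT replicate 4 was added after seeing the data. The 10 genes and the gene lists were chosen with earlier results of these data known. All 10 genes are named, and of each list of related genes the 3 highest and 2 lowest log2 FC and any gene called lower, of each marker list the 2 genes of highest mean CPM. Siglec5, Ptprc, Krt5, Cd3d, Cd3g, the stefin A genes, Slc4a1 in single mice and the genes at 0 were named after their values were seen. For 1 listed gene no result is reported here. WT mice were littermates of KSR23 mice, but no label ties single mice to a litter.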

Additional observations from a re-analysis of the deposited data

Results flagged for a closer look

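In KSR23 replicate 3, 11 values lay far from those of the other 4 KSR23 mice by Dixon's test on groups of 5. The test used CPM and not their logarithm, on which high values lie less far apart. This mouse had been singled out with earlier results of these data known, so the flags describe it and give no separate support. They were S100a8 at 75.7 CPM (others at most 17.6), S100a9 at 72.8 CPM (at most 16.7), Mpo at 37.3 CPM (at most 9.43), Ngp at 116 CPM (at most 25.2), Camp at 34.6 CPM (at most 7.23), Ltf at 78.2 CPM (at most 21.4) and Mmp8 at 6.98 CPM (at most 1.90). The sums of the early genes (48.3 CPM), late genes (246 CPM), cytosolic genes (148 CPM) and all 10 genes (442 CPM) in that mouse lay apart in the same way. These values are not independent of each other, since the sums hold the same genes. The ratio of S100a8 to S100a9 in KSR23 replicate 2, 1.27, also lay apart from the other KSR23 mice (1.01 to 1.05). In all 32 groups of 5 values were looked at, of which chance would give about 1.6 if values were independent and normally distributed, which was not tested for CPM. No WT mouse lay apart in this way, although WT replicate 4 was the highest WT mouse in 6 of the 10 genes.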

How the results depend on the processing

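For the 10 genes, 208 values under the 22 alternatives kept their direction and their side of the threshold, 6 lost the call and 4 gained it. With robust dispersion 5 of the 10 were called, since Ngp (adjusted p = 0.118), Camp (0.0994) and Ltf (0.0523) were lost. Over all alternatives the adjusted p was between 0.0386 and 0.555 for Mpo, 0.0347 and 0.519 for Elane, 0.00105 and 0.118 for Ngp, 0.000468 and 0.0994 for Camp and 1.5e-05 and 0.0523 for Ltf, and at most 0.038 for the other 5 genes. A replicate block called 6 of the 10, without Ngp (0.0766) and Camp (0.0543), also lost Trem1 (0.0543), and called 3755 of all genes against 4451. Same-numbered mice showed little likeness, with correlations of their deviations from the group means between -0.11 and 0.01. Such values cannot show whether these mice shared a litter or were handled together, and no number was called shared in the labels. Leaving out 1 mouse called between 7 (without KSR23 replicate 3) and 10 of the 10 (without WT or KSR23 replicate 4), 6 without overlap each time, and between 3590 and 4275 genes in all. It placed the difference of early against late granule genes between -0.607 and 0.0974, so its direction was not fixed, the fold of the summed genes between 2.26 and 5.57, and the log2 FC of Il23a between 2.29 and 2.83. Library size alone shifted the median of all genes to 0.0925 and the higher calls from 52.3 to 72.5%, and 8 of the 10 genes were still called. Of the other named genes the direction changed for 5. Slc4a1 was -1.31 with a replicate block, -2.04 with KSR23 replicate 3 and WT replicate 4 left out, and between -2.32 (without KSR23 replicate 3) and 0.42 with 1 mouse left out. Leaving out 1 mouse gave -0.021 to 0.33 for Cd300ld, -0.0045 to 0.23 for Cma1, -0.043 to 0.29 for Krt14 and -0.26 to 0.11 for Itga2b. Both mice left out gave -0.013 for Cd300ld and -0.0086 for Cma1, and library size alone gave 0.031 for Itga2b. The cause was not tested. Depth limited Prtn3, Mmp8 and Elane in single mice and most other early granule genes, which were near 3 counts.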

Other observations

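Relative to Ptprc, the common leukocyte antigen gene, the 10 genes summed to 6.16, 4.51, 3.23, 9.11 and 2.35 times the CPM of Ptprc in WT replicates 1 to 5 and to 5.57, 5.3, 34.6, 4.82 and 18.3 times in KSR23 replicates 1 to 5. KSR23 replicates 1, 2 and 4 were thus within the WT range on this scale, and replicates 3 and 5 were above it. Ptprc itself was 6.18 ± 0.804 CPM in WT and 10.01 ± 2.60 CPM in KSR23 mice (n = 5 each).

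Mmp8 and Mmp9 did not follow the other genes among the WT mice. WT replicate 4 had the highest S100a8, S100a9, Mpo, Elane, Prtn3 and Ngp of the 5 but the lowest Mmp8 (0.0974 CPM, 3 counts) and Mmp9 (1.43 CPM), and WT replicate 5 had the lowest early, late and cytosolic sums but the highest Mmp8 (0.745 CPM). This was seen in the values and was not tested.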
